A study of Homo sapiens with 3 samples.

Results

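The cytokine genes IL10, IL19, IL20, and IL24 were followed in THP-1 macrophages on 3 one-color arrays, 1 array per condition. They were found as the transcript probes whose gene name in the scanner output is a member. This gave 5 probes for 4 genes, of 58201 probes and 43317 gene names in all. IL24 had 2 probes, and each other member had 1. THP-1 cells derive from a human monocytic leukemia. The cells of all 3 conditions had been turned into macrophages with the phorbol ester PMA at 100 ng/mL for 24 to 36 h and then kept overnight in fresh medium. Untreated macrophages (Ctrl), macrophages given imiquimod (IMQ), and macrophages that received DMD and then IMQ (IMQ+DMD) were compared. IMQ activates macrophages through TLR7, a receptor for single-stranded RNA, and DMD is a benzenoid from the mushroom Antrodia cinnamomea. The labels write the third treatment as IMQ+X, and X was read as DMD because the series title and the treatment protocol name DMD as the compound given before IMQ, while no sample title names it. A time of 4 h stands in the label of each array, and no dose of either agent does. A longer IMQ incubation is stated in the methods for THP-1 experiments in general. Nothing in the labels tells of more than 1 culture per condition. DMD alone was not analysed here.

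IL-10 is the founding member of a family of cytokines that signal through paired receptor chains, JAK kinases, and mainly STAT3. IL-10 itself acts on macrophages through IL10RA and IL10RB and restrains their release of inflammatory cytokines. IL-19, IL-20, and IL-24 form a subfamily that shares the receptor chain IL20RB and acts mostly on epithelial cells such as keratinocytes, and it is known for high levels in psoriatic skin. In humans the 4 genes lie side by side on the long arm of chromosome 1.

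The probes have 60 bases each. On hg19, the IL10 probe lies at chr1:206941394-206941453 on the minus strand. On the plus strand follow the IL19 probe at chr1:207010307-207010366, the IL20 probe at chr1:207041869-207041928, and the IL24 probes at chr1:207075344-207075403 and chr1:207076757-207076816. The array design lists the same 4 RefSeq transcripts for both IL24 probes. Their exons were not assigned here, because no annotation of that build was used. The probes of IL19 and the first of IL24 are shown, since these genes differed after IMQ although they are neighbors in the subfamily. No part of them is marked by capitals.
IL19 probe: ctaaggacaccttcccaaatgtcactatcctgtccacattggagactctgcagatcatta
IL24 first probe: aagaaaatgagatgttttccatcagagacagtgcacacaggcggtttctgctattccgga

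After IMQ, IL10 and IL24 were higher than in Ctrl macrophages, whereas IL19 was not, and IL20 was not detected on any array. With the normalized values of the authors, IL10 was 6.95-fold higher and IL24 at least 4.63-fold and 5.46-fold higher by its 2 probes. These sizes depend on the processing. Over the alternatives run, the log2 rise ranged from 2.02 to 2.80 for IL10. It ranged from 0.71 to 2.22 for the first IL24 probe and from 1.71 to 2.45 for the second. With DMD before IMQ, IL10 and IL24 were lower than after IMQ alone by less than 2-fold. Both stayed at least 2-fold above Ctrl, except the first IL24 probe under normexp background correction (log2 difference 0.46).

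**Figure D1:**
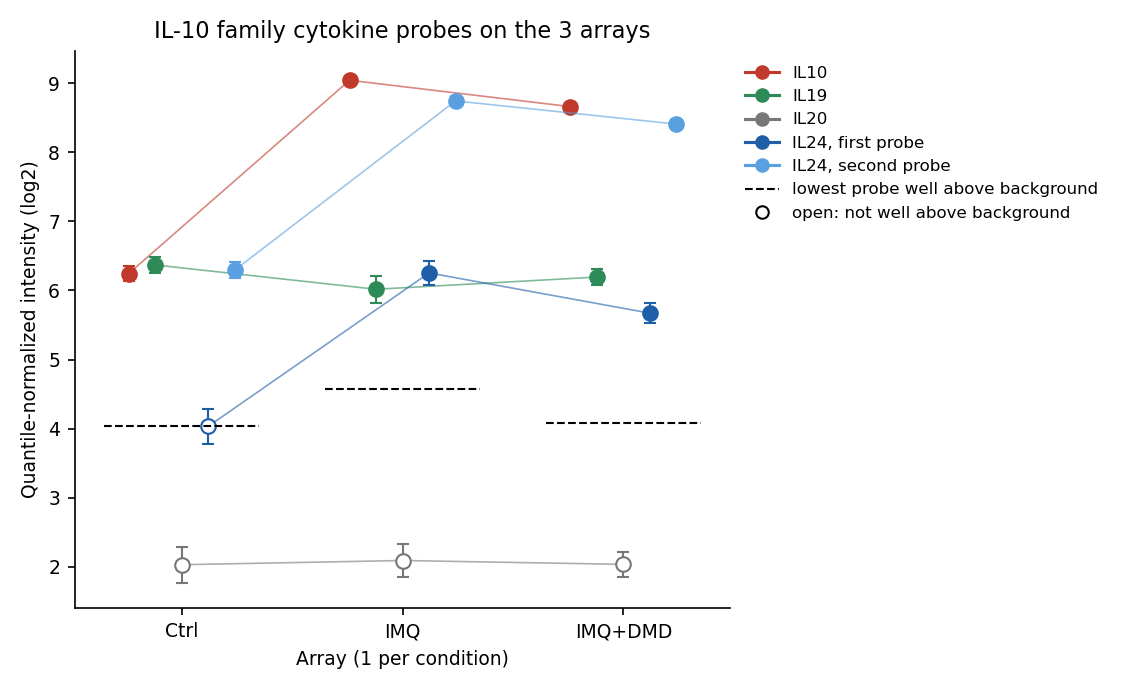
Log2 of the quantile-normalized intensity of each member probe on the Ctrl, IMQ, and IMQ+DMD arrays, with bars for the SD of repeated spots of like brightness (noise within an array only). Dashed lines mark the lowest probe well above background on each array, and open circles lie below that quality mark. IL10 and both IL24 probes are highest after IMQ, IL19 stays between 6.02 and 6.37, and IL20 lies near 2 throughout. Heights of different probes are not comparable.

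All intensities below are those that the authors had quantile normalized, on a linear scale. A probe not well above background by the scanner software has only a bound, and where its value lay under that of the dimmest probe above background, the latter was used in its place. This floor was 16.5 for Ctrl, 23.8 for IMQ, and 16.9 for IMQ+DMD. Of the 5 member probes, 3 passed that mark in every condition and 1 in none. The scanner software rated between 66.6% and 72.0% of all probes well above background per array. Of 6 monocyte and macrophage markers, the 4 that were read (CD14, ITGAM, CSF1R, and SPI1) were well above background on every array. The 3 T-cell and 3 B-cell markers were so as well, and of 3 keratinocyte markers KRT5 was below it on the IMQ array. Passing the mark thus does not by itself show that a dim gene, such as IL19 or IFNL1 below, is expressed. From Ctrl to IMQ the log2 differences of these markers lay between -0.71 and 0.41, except for KRT5, which was at -0.75 or below and may have passed 2-fold. CD14 was at -0.71 in that comparison, at -0.51 from IMQ to IMQ+DMD, and at -1.21 from Ctrl to IMQ+DMD. KRT5 was at least 1.11 higher on the log2 scale after IMQ+DMD than after IMQ. The part of these markers in the results was not tested. Because 1 array stands for each condition, differences are given without a p-value and were not checked in a replicate. Fewer cells that express a gene and less RNA per cell cannot be told apart in such samples.

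IL10, the regulatory cytokine of macrophages, had an intensity of 75.9 in Ctrl macrophages, 528 with IMQ, and 405 with IMQ+DMD. It was lowest in Ctrl and highest after IMQ. The log2 difference of IMQ from Ctrl was 2.80, with an SD of 0.13 expected from repeated spots of like brightness. With normexp background correction this difference was 2.02. Among 41109 probes compared, 141 rose more. From IMQ to IMQ+DMD the log2 difference was -0.38 (SD of repeated spots 0.08), a level 1.30-fold lower. The level after IMQ+DMD was still 5.34-fold above Ctrl. On the log2 scale, 86.4% of the rise thus remained.

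IL24 encodes a cytokine first studied for its effects on tumor cells, and activated monocytes can make it. On its second probe, IL24 stood at 78.6 in Ctrl, 429 with IMQ, and 340 with IMQ+DMD. IL24 thus followed the same order of arrays as IL10. The log2 difference of IMQ from Ctrl was 2.45 (SD of repeated spots 0.13), and that of IMQ+DMD from IMQ was -0.34 (0.09). On its first probe, it stood at 16.4 in Ctrl, 76.3 with IMQ, and 51.0 with IMQ+DMD. The Ctrl value was not well above background, so that the log2 rise of 2.21 is a lower bound. It was 0.71, under 2-fold, with normexp background correction. From IMQ to IMQ+DMD the first probe differed by -0.58 (0.23). The rises of the 2 probes lay 0.24 apart, but the rise of the first is a bound, so that their true distance is not known. With normexp the rises were 0.71 and 1.71 on the first and second probe. The falls of the 2 probes differed by 0.25. Repeated spots of the dimmer probe have an SD of 0.31 for the rise and of 0.23 for the fall. The error that the scanner software gives for each spot is larger, with an SD of the difference of IMQ+DMD from IMQ of 0.21 for IL10 and of 0.26 and 0.21 for the first and second IL24 probe. The level after IMQ+DMD was at least 3.09-fold and 4.33-fold above Ctrl on the first and second probe. With normexp the first probe was at 0.46 on the log2 scale in that comparison, under 2-fold, so that 3.09-fold is a bound for the normalized values of the authors only.

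IL19, a cytokine of the same subfamily as IL24, had an intensity of 82.7 in Ctrl, 64.8 with IMQ, and 73.2 with IMQ+DMD. It was well above background on every array and lowest after IMQ. T-cell and B-cell markers passed that mark as well, and whether the IL19 signal is specific was not tested. IMQ differed from Ctrl by -0.35 on the log2 scale (SD of repeated spots 0.22), and IMQ+DMD differed from IMQ by 0.18 (0.23). These are differences of 1.28-fold and 1.13-fold, the latter smaller than the noise of repeated spots. With scaling to spike-in probes the first became -1.06, which would pass 2-fold. That scaling moves the median of all probes by -0.58, and relative to this median IL19 was at -0.48, against -0.35 with the normalized values of the authors. The value relative to the median is the same for any scaling by a constant factor per array. It therefore cannot tell which scaling is right.

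IL20, whose protein acts on keratinocytes, had intensities of 4.09, 4.26, and 4.10 in Ctrl, IMQ, and IMQ+DMD. None was well above background, and all lay under the floor of their array. No fold change is given for IL20, and a low level could not be seen at this signal.

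Of the 5 member probes, all but that of IL20 could be compared. With IMQ, 3 exceeded Ctrl by 2-fold or more and 0 were that much lower. These 3 stand for 2 genes, IL10 and IL24. Among all probes compared, 4.31% were at least 2-fold higher and 3.48% were lower. Between IMQ+DMD and IMQ, 0 of the member probes differed by 2-fold in either direction, where 1.09% of all probes were higher and 1.31% were lower. Between IMQ+DMD and Ctrl, 3 member probes were at least 2-fold higher, beside 3.09% of all probes, and 0 lower, beside 4.91%. These percents depend on the scaling, and for IMQ+DMD and IMQ the 447 higher and 535 lower probes became 1307 and 274 with scaling to the 75th percentile. The 3 comparisons share arrays and are not independent of each other. Of the 1773 probes raised at least 2-fold by IMQ, 84.8% were lower after IMQ+DMD than after IMQ, and their median remaining rise was 75.6% (quartiles 44.0% and 93.0%). Rise and fall both use the IMQ array. The remaining rise was 86.4% for IL10 and 86.3% for the second IL24 probe, both between those quartiles. For the first IL24 probe it was at least 73.7%, because the Ctrl value of that probe is a bound.

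**Figure D2:**
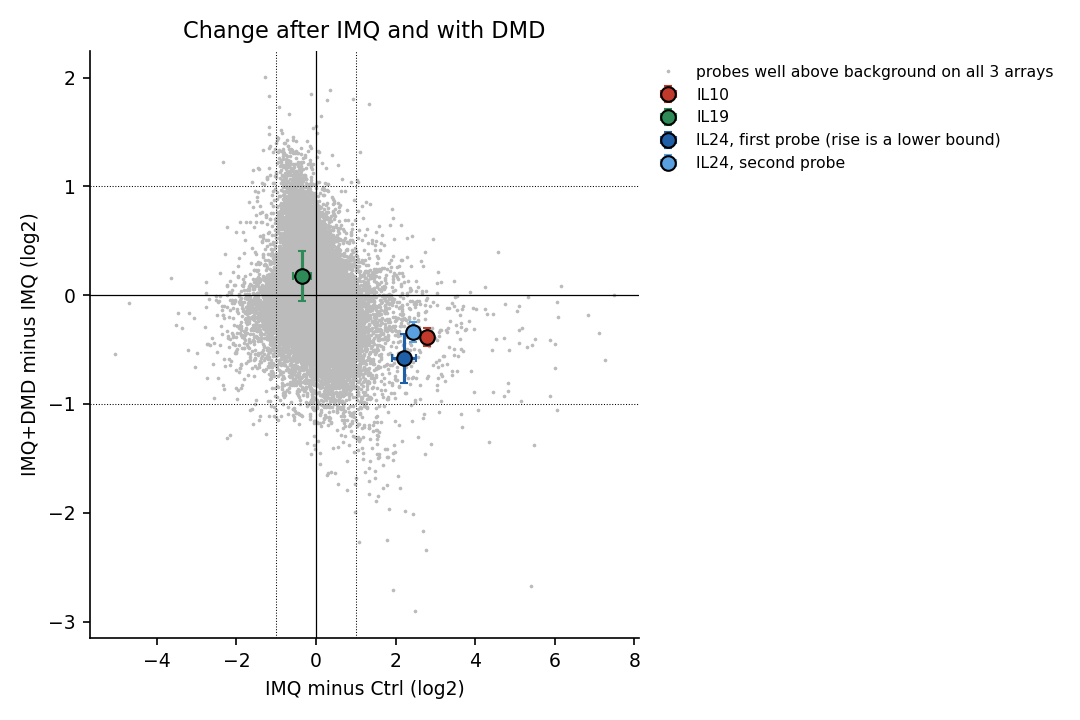
Log2 difference of IMQ from Ctrl (horizontal) and of IMQ+DMD from IMQ (vertical). Grey points are the probes well above background on all 3 arrays, colored points are the member probes with bars for the SD of repeated spots, and dotted lines mark 2-fold. IL10 and IL24 lie beyond 2-fold to the right and within 2-fold below 0, and IL19 lies inside the cloud.

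The spots behind these values were checked. None of the member spots had an outlier mark and 0 spots were saturated on any array. The SD of the pixels of a spot in percent of their mean was ranked among spots whose brightness on the same array differed by at most 1.5-fold. The IL10 spots lay at percentiles 56.4, 76.6, and 42.7 on the Ctrl, IMQ, and IMQ+DMD arrays. The least even spot of a detected member was that of the first IL24 probe after IMQ, at percentile 92.8. For the second IL24 probe the highest percentile was 44.4, again after IMQ.

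IL10 and IL24, which rose, enclose IL19, which was not higher, and IL20, which was not detected. On hg19 the IL19 probe lies 68.9 kb, the IL20 probe 100 kb, and the IL24 probes 134 kb and 135 kb from the IL10 probe. Among 12 neighboring genes fixed as a list, 11 could be compared between IMQ and Ctrl. Of these, 1 was at least 2-fold higher by the probe that stands for it, beside 4.17% of all genes. This was DYRK3, a kinase gene, with a log2 difference of 1.44. RASSF5, a Ras effector gene, was at 0.91 and 1.07 on its 2 probes. MAPKAPK2, the kinase that relays p38 signals to cytokine mRNA and the nearest neighbor of IL10 in the list, was at 0.72. On the other side, FCMR, whose span overlaps that of IL24 in RefSeq, was at -0.55, and PIGR, the transporter of polymeric antibodies, was at -0.51. The median of the neighbors was 0.04, beside -0.02 for all 31851 genes compared. From IMQ to IMQ+DMD, 10 of 11 neighbors were below 0, none by 2-fold, where 49.1% of all genes were below 0. The median of the neighbors was -0.07 (0.05 with spike-in scaling), and the median of all genes was 0.00390. Several neighbors lay within the SD of repeated spots, such as EIF2D at -0.0022 (SD 0.07) and YOD1 at -0.0034 (0.07). The lowest was FCAMR, a receptor for antibodies, at -0.69, while its other probe was at -0.38. In RefSeq the spans of IL10 and IL19 overlap as well, and whether the probes tell overlapping transcripts apart was not tested.

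**Figure D3:**
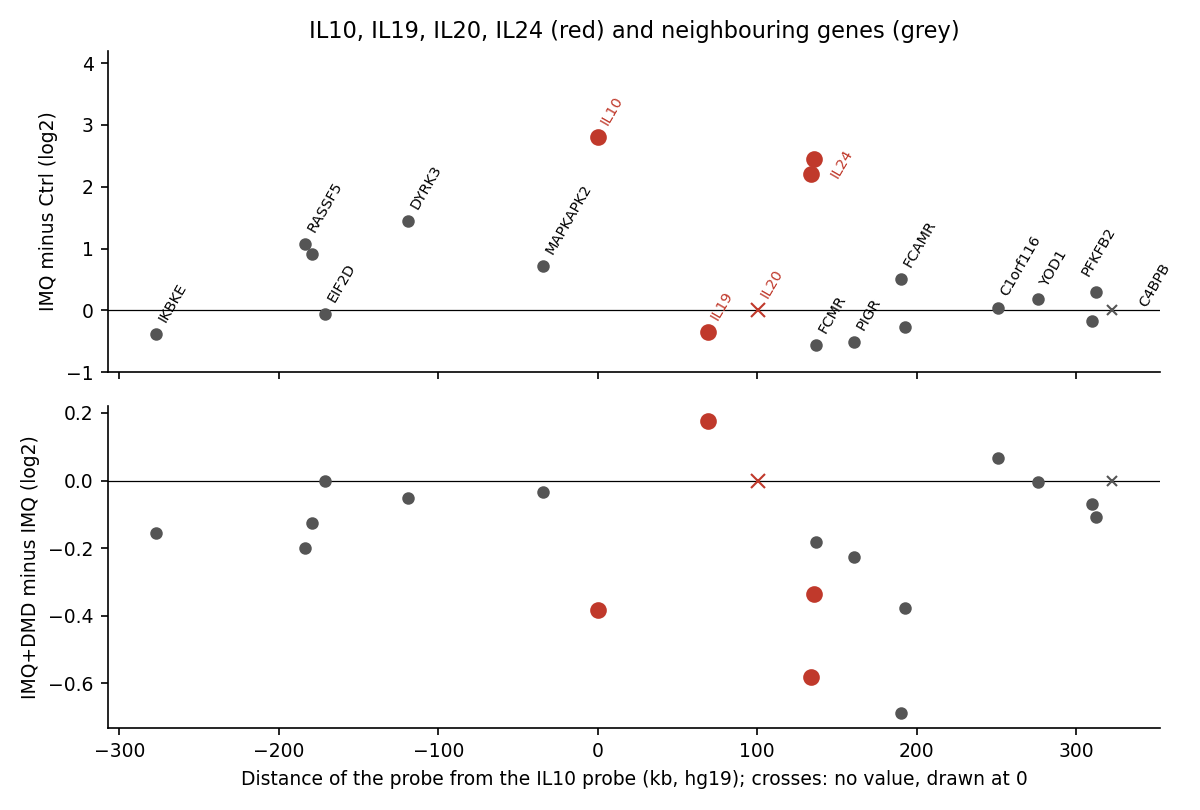
Log2 difference of IMQ from Ctrl (upper) and of IMQ+DMD from IMQ (lower) for every probe of the members (red) and of the listed neighboring genes (grey), against the distance of the probe from the IL10 probe in kb. Crosses are probes without a value. IL10 at 2.80 and IL24 at 2.21 and 2.45 stand above every neighboring probe shown, the highest of which is DYRK3 at 1.44.

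The bases before the start sites of IL10 and IL24 are shown because these are the members that moved together. They are from RefSeq (GRCh38.p14), cover the 250 bases before the first start listed, and run 5′ to 3′ on the strand of the gene. They lie at chr1:206772495-206772744 (minus strand) for IL10 and chr1:206897193-206897442 (plus strand) for IL24. Capitals mark a match to any searched motif, on either strand.
IL10: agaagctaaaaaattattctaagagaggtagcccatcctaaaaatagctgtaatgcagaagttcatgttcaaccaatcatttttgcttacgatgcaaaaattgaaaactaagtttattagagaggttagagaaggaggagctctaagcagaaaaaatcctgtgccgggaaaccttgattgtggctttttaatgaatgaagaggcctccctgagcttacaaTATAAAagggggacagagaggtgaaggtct
IL24: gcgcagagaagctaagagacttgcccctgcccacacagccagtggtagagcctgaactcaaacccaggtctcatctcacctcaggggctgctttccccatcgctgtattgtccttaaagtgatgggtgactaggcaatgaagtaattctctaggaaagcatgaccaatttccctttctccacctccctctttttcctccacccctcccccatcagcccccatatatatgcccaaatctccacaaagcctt

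The motifs searched were the TATA box (TATAAA), the NF-κB site of the immunoglobulin kappa enhancer, a cAMP response element (TGACGTCA), an AP-1 site (TGANTCA), and a STAT site (TTCNNNGAA), where N is any base. In the same 250 bases of 35116 RefSeq starts, a match was held by 10.7%, 0.179%, 1.65%, 6.57%, and 6.57%, in that order. The IL10 window held a TATA box that begins 30 bases before the start. The IL24 window held no match to these letters. IL19 has 2 listed starts, with an AP-1 match 107 bases before the first and a STAT match 217 bases before the second. IL20, which was not detected, held a TATA box 32 bases before the first of its starts. A second IL10 start held an AP-1 match 69 bases before it. This and the AP-1 match of IL19 are the same 7 bases, chr1:206770666-206770672, read on opposite strands. A match is a run of letters and not a measured site.

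Few of the other ligands of the family could be compared. Of IL22, IL26, IFNL1, IFNL2, and IFNL3, which were read on the arrays, 2 could be compared between IMQ and Ctrl and 0 passed 2-fold. IFNL1, a type III interferon, had intensities of 70.7, 66.5, and 87.6 in Ctrl, IMQ, and IMQ+DMD. From IMQ to IMQ+DMD it differed by 0.40 on the log2 scale (SD of repeated spots 0.22). IFNL2 had 286, 296, and 289. IL22, the T-cell cytokine of the family, and IFNL3 were not well above background on any array, and IL26 only in Ctrl, at 20.3. No probe was found under the gene name IFNL4.

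The receptors were detected for IL-10 and only in part for the IL-20 subfamily. IL10RA, the ligand-binding chain, had an intensity of 8549 in Ctrl, 12422 with IMQ, and 8889 with IMQ+DMD. On the log2 scale IMQ differed from Ctrl by 0.54 and IMQ+DMD from IMQ by -0.48, each with an SD of repeated spots of 0.06. IL10RB, the shared second chain, was at 5678, 6450, and 6772 on the 3 arrays. IL10RA was thus highest after IMQ, and IL10RB differed by at most 0.25 between any pair of arrays. IL20RB, the chain that IL-19, IL-20, and IL-24 share, was at 200.5, 316, and 245, with log2 differences of 0.66 and -0.37. IL20RA, its partner, was well above background in Ctrl only, at 28.3. IL22RA1, the other partner, was not well above background on any array. IFNLR1 and the decoy receptor IL22RA2 were at -0.25 and -0.36 for IMQ against Ctrl (SD of repeated spots 0.21 and 0.26). Only 1 of the 3 IFNLR1 probes could be compared, and the 2 IL22RA2 probes ranged from -0.36 to 0.02. Of the 7 receptor genes, 6 were compared between IMQ and Ctrl, 3 were above 0 and 3 below, and 0 passed 2-fold in either direction.

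Signal relay genes differed from each other. SOCS3, the feedback inhibitor that STAT3 induces, had an intensity of 40.8 in Ctrl, 1759 with IMQ, and 1281 with IMQ+DMD. On the log2 scale its rise was 5.43, and IMQ+DMD differed from IMQ by -0.46. SOCS1, a related inhibitor, was at -0.36 and 0.40 in the same order. Of 10 genes of JAK kinases, STAT factors, and their inhibitors, SOCS3 alone passed 2-fold after IMQ. JAK1 was at 0.64, TYK2 at 0.15, and STAT3 at 0.31, while JAK2 was at -0.72. The median of the list was 0.16 between IMQ and Ctrl, but -0.33 without normalization and -0.41 after spike-in scaling. Between IMQ+DMD and IMQ it was -0.21.

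Among 11 genes known to respond to IL-10 in macrophages, 3 rose at least 2-fold after IMQ and 2 fell. Of all genes compared, 4.17% rose and 3.59% fell by as much. Beside SOCS3, these were BCL3, a nuclear IκB protein, at 3.96 and TNFRSF1B, a TNF receptor that is also shed, at 1.87. CD163, the hemoglobin scavenger receptor, fell by 1.22 and IL21R, a cytokine receptor, by 1.09 on the log2 scale. IL1RN, the IL-1 receptor antagonist, had intensities of 50224, 94437, and 70295 and a log2 difference of 0.91. IL4R was at -0.27 on the probe that stands for it, while its 3 probes ranged from -0.27 to 1.98. From IMQ to IMQ+DMD, 10 of the 11 were below 0, with a median of -0.31, and 0 passed 2-fold. Of all genes, 49.1% were below 0, 1.19% were at least 2-fold higher, and 1.25% lower. CD163 was the exception, at 0.09.

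Of 21 genes for proteins that regulate IL10 transcription or cytokine mRNA decay, 9 rose at least 2-fold after IMQ and 0 fell. Of all genes, 4.17% rose and 3.59% fell by as much. Like the other lists, this one was chosen with earlier results of these data known, so that the contrast is not independent of them. The transcription factors among the 9 were BHLHE40 at 3.43, CEBPB at 3.04, PRDM1 at 2.29, NFKB1 at 1.54, JUNB at 1.46, and FOS at 1.24. The others were DUSP1, a phosphatase of MAP kinases, at 3.65, MAP3K8, a kinase upstream of ERK, at 1.80, and ZFP36, which promotes decay of cytokine mRNA, at 1.32. A second probe of MAP3K8 was at 0.52. MAF, a direct activator of IL10, had intensities of 4119, 2813, and 3399 and a log2 difference of -0.55. The median of the list was 0.44 between IMQ and Ctrl, but 0.11 without normalization and 0.02 after spike-in scaling. NFIL3 was the median gene of this list and of the IL-10 response genes, so that these values hold for both. Between IMQ+DMD and IMQ the median of the regulators alone was -0.05 (0.04 after spike-in scaling), and 0 of these genes passed 2-fold. FOS was lowest in the latter comparison, at -0.60. NFIL3 is in this list and in that of the IL-10 response genes, and SOCS3 is in that list and among the relay genes.

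**Figure D4:**
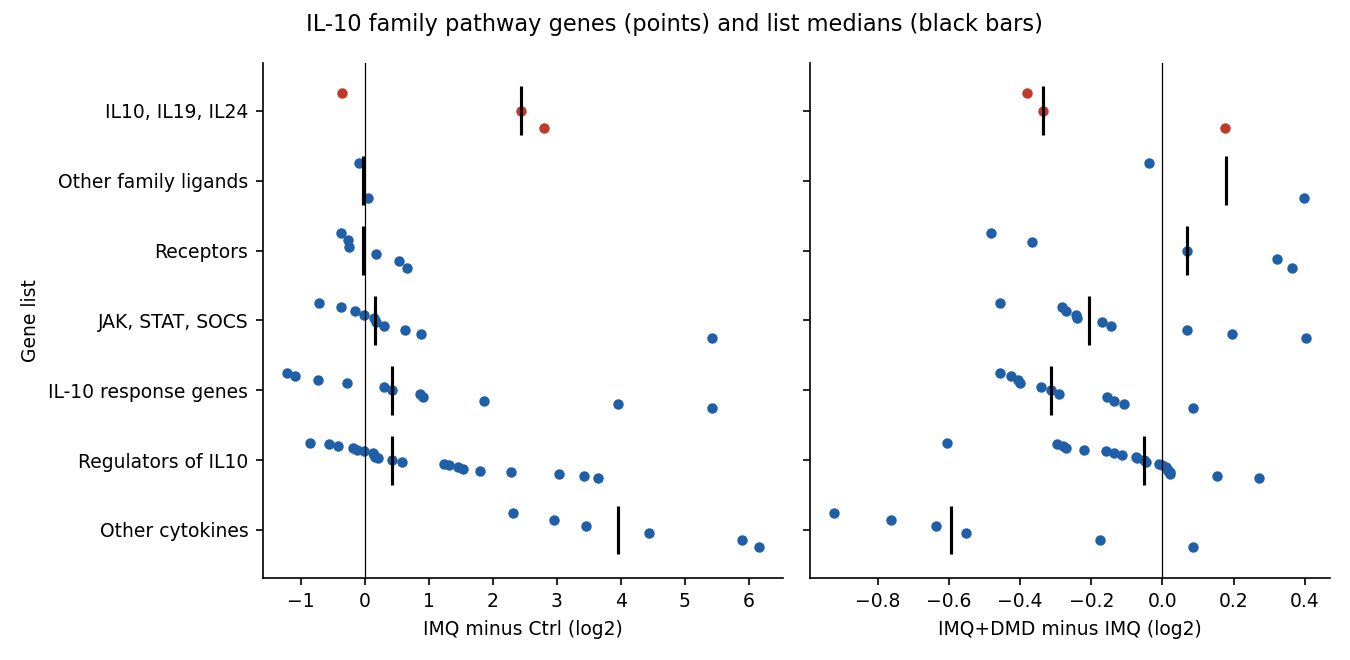
Log2 difference of IMQ from Ctrl (left) and of IMQ+DMD from IMQ (right) for the detected members and for the genes of each list. Points are genes, each read from 1 probe, and black bars are list medians. The other cytokines lie highest after IMQ (median 3.96), and the receptors center near 0 (median -0.03).

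Other cytokines of activated macrophages were read beside the members. Of TNF, IL6, IL1A, IL1B, IL12B, IL23A, and CXCL8, 6 were compared and all 6 rose at least 2-fold after IMQ, with log2 differences from 2.32 for IL1A to 6.16 for CXCL8. Of all genes, 4.17% rose as much. IL12B was not well above background on any array. From IMQ to IMQ+DMD, 5 of the 6 were below 0, from -0.18 for IL1B to -0.92 for IL23A, and CXCL8 was at 0.09. Of all probes raised by IMQ, 84.8% were lower after IMQ+DMD. The median of the 6 cytokines was -0.60, and those of IL10 and the IL24 probes lay between -0.34 and -0.58. No difference between these cytokines and the members was tested.

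The genes nearest to a member in the pair of log2 differences (IMQ against Ctrl and IMQ+DMD against IMQ) were sought over the 3 arrays among 29337 genes well above background on all of them. For IL10 they were HBEGF, CDC42EP2, lnc-HMCN1-2, CACNA1E, and MAMLD1, at distances from 0.03 to 0.13 log2 units. HBEGF, a growth factor that binds the EGF receptor, was at 2.82 and -0.39. For the second IL24 probe they were PIM2, TNFAIP2, PBX4, PLAU, and AVPI1, at distances from 0.02 to 0.12. PLAU, the urokinase plasminogen activator, was at 2.40 and -0.40. For IL19 they were MITF, FAM159A, XLOC_l2_000407, LOC101928858, and GGT3P, all within 0.0057. A likeness over 3 arrays describes these arrays only.

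**Figure D5:**
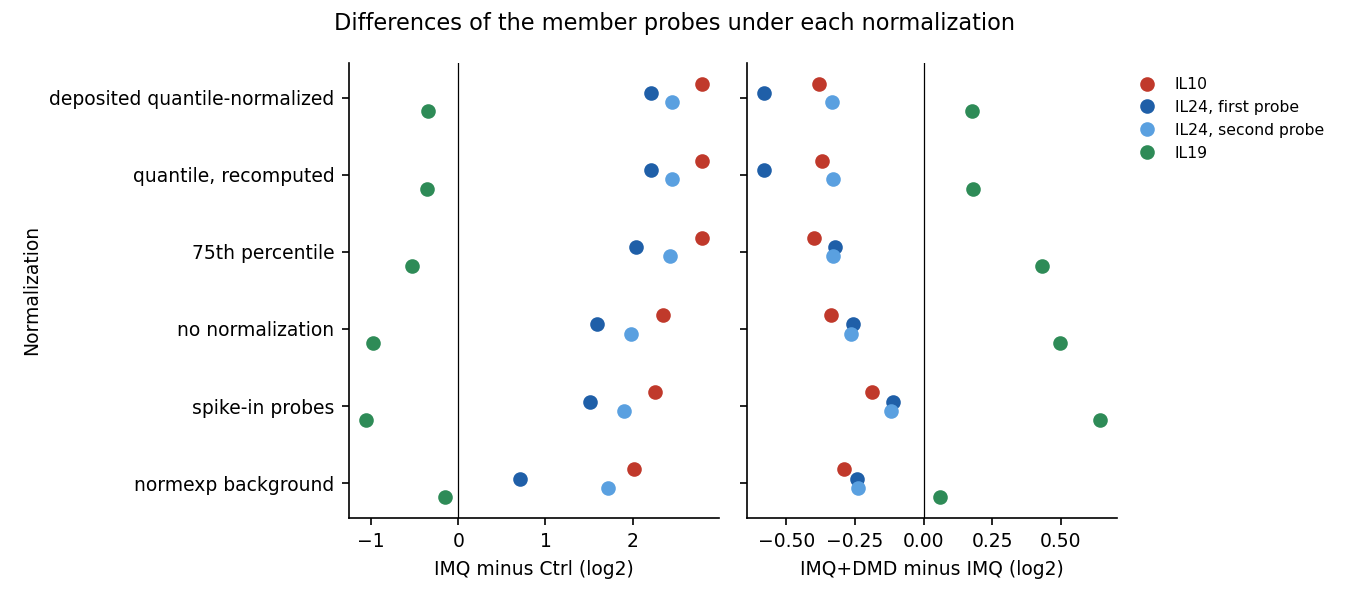
Log2 difference of IMQ from Ctrl (left) and of IMQ+DMD from IMQ (right) of each detected member probe under 6 ways of normalizing the arrays. Each point is 1 probe. IL10 and both IL24 probes stay above 0 on the left and below 0 on the right, and IL19 the reverse, but the sizes shift. The first IL24 probe is at 0.71 on the left with normexp.

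The direction of every detected member probe in each comparison was the same under all alternatives run. Leaving out the floor, or asking for signal on both arrays, cannot change a probe well above background on every array. With scaling to spike-in probes, the fall of IL10 from IMQ to IMQ+DMD was -0.19 and those of the first and second IL24 probes were -0.11 and -0.12. All probes shift by a median of 0.18 in that setting, and relative to it the differences were -0.37, -0.30, and -0.30. Subtracting the median undoes any scaling by a constant factor per array. The relative values are therefore no check on the spike-in scaling.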

How the data were processed

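Cy3-labeled RNA of THP-1 macrophages was hybridized to 1 one-color array for each of 3 conditions. The authors deposited, for each array, the spot intensity from Feature Extraction 10.5.1.1 together with 0/1 quality marks given in other columns, and a table of the raw and quantile-normalized intensity of each probe. The deposited normalized intensity was used, because the normalization was stated by the authors. The raw intensity of that table equaled the scanner output for the 57901 probes with 1 spot. Columns of text calls (detected or not) were not used, and 0 columns of values per sample were left unused. Quantile normalization forces the same distribution on each array. The number of arrays limits the precision.

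Log2 differences between single arrays were taken in Python 3.11.15 with numpy 2.4.6 and pandas 2.3.3, and plots were drawn with matplotlib 3.10.9. Probes were compared that passed the background mark on the brighter array, dim values were floored, and 2-fold was the threshold. No test was run. The noise of a spot was the median SD of the 30 probes with 10 spots nearest in brightness, of 300 such probes, and it does not cover differences between cultures or arrays. For dim probes the nearest repeated probes are mostly brighter, so that their noise may be understated. A gene of a list was represented by the probe of highest mean log2 value. The comparison was tested on simulated data. Named were all member probes, the listed genes past 2-fold with the receptors and ligands, and the 5 genes nearest to each member. Other listed genes were named after their values were seen. Members and lists were chosen with earlier results of these data known.

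Alternatives tried were no normalization, division by the 75th percentile, 8 spike-in probes (35 spots per probe) as the scale, quantile normalization recomputed from the scanner intensities with limma 3.58.1 in R 4.3.3 (control and outlier-marked spots left out), normexp correction with an offset of 50, no floor, signal on both arrays, thresholds of 1.5-fold and 4-fold, and the mean of the probes of a gene.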

Additional observations from a re-analysis of the deposited data

How the results depend on the processing

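No paired analysis was possible because each condition has 1 array and the replicate number 1 is the only one. For the same reason no array could be left out. Of 85 values of member differences under alternatives, all 85 kept their direction, 52 stayed within the noise of repeated spots, and 33 moved by more. Some of the 52 could not change. These come from leaving out the floor, or asking for signal on both arrays, where a probe was well above background on the arrays compared. The dimmer IL24 probe under each alternative was added after seeing the data. The counts of member probes past 2-fold stayed within 1.5 times, except that scaling to spike-in probes gave 1 probe at least 2-fold lower after IMQ than in Ctrl (IL19). With normexp, and with signal on both arrays, 2 member probes in place of 3 were at least 2-fold higher after IMQ, and likewise after IMQ+DMD, than in Ctrl. Across all probes, IMQ against Ctrl gave 1773 higher and 1432 lower, but 732 and 6668 without normalization (median of all probes -0.49), 648 and 8289 by spike-in scaling (-0.58), 729 and 714 by normexp, and 3751 and 3853 with no floor. IMQ+DMD against IMQ gave 447 and 535, but 1684 and 233, 2822 and 165, 22 and 38, and 2491 and 2229 in that order. IMQ+DMD against Ctrl gave 1350 and 2146, but 674 and 4511, 753 and 3942, 647 and 982, and 3059 and 3828. Of 168 values of list medians, 143 kept their direction and 7 reversed a median larger than the noise. For IMQ against Ctrl, the JAK, STAT, and SOCS genes gave -0.33 (none) and -0.41 (spike-in). For IMQ+DMD against Ctrl, the IL-10 response genes gave -0.17 and -0.11 and the regulators of IL10 -0.19 and -0.12 in those settings. For IMQ+DMD against IMQ, the other family ligands gave -0.0367 with no floor, which brings in dim probes. Background signal limits IL20, which was dim on every array, and the first IL24 probe, which was dim in Ctrl.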
